A study of Mus musculus with 8 samples.

Results

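The platelet-derived growth factor (PDGF) system and the contractile genes of the mesangium were followed in isolated glomeruli of Cd151+/+ and Cd151-/- mice. The genes were chosen by symbol: the ligand genes Pdgfa, Pdgfb and Pdgfc, the receptor genes Pdgfra and Pdgfrb, and the contractile and cytoskeletal genes Acta2, Tagln, Myh11, Cnn1 and Des. These are 10 of the 18120 genes on the array, carried by 13 of its 25697 probes. Of them 9 genes with 11 probes were detected on at least 1 array and tested, among 11240 genes with 14967 probes in all. Cnn1 and a second probe for Pdgfb were detected on 0 of 8 arrays and were not tested.

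Both genotypes were male mice of the FVB/N strain aged 3 weeks, 4 Cd151+/+ and 4 Cd151-/-, with 1 mouse per array and mice numbered from 1 to 4 within a genotype. Cd151-/- mice lack the tetraspanin Cd151, a partner of laminin-binding integrins, and the labels name no transgene, Cre or treatment in either genotype. RNA came from glomeruli that had been loaded with magnetic beads by perfusion and collected on a magnet, so each value is an average over podocytes, endothelium, mesangium and whatever was carried along. In such bulk samples, fewer cells of a type and less RNA per cell cannot be told apart. The comparison asks which glomerular transcripts differ at an early stage of the disease that follows Cd151 deletion.

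PDGF ligands are dimeric secreted growth factors that bind the receptor tyrosine kinases PDGFR-alpha and PDGFR-beta. In the developing glomerulus, endothelial cells release PDGF-B, and mesangial progenitors that carry PDGFR-beta are recruited by it. Loss of either leaves the capillary tuft without a mesangium. Mesangial cells are specialised pericytes that hold the capillary loops together, and alpha-smooth muscle actin, the product of Acta2, is a widely used sign of mesangial activation. Smooth muscle genes of this kind are commonly driven by serum response factor (Srf) and its partner myocardin (Myocd) through an element called the CArG box.

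RefSeq promoter windows of assembly GRCm38.p6, each running from 250 bases before to 50 bases after a transcript start, were matched for 6 of the 10 genes, with 7 windows in all (Pdgfa has 2). They were searched for the CArG box, which is CC followed by 6 letters that are each A or T and then GG, and reads alike on both strands. The Acta2 window is shown because Acta2 had the smallest p-value of these genes and its window was the only one of the 7 with 2 such elements when 1 G or C was allowed inside. Its 250 bases before the start lie at chr19:34255374-34255623 on the minus strand and are printed 5′ to 3′ with both elements in capitals. RefSeq also places a longer transcript of the gene with its start inside this stretch.
Acta2: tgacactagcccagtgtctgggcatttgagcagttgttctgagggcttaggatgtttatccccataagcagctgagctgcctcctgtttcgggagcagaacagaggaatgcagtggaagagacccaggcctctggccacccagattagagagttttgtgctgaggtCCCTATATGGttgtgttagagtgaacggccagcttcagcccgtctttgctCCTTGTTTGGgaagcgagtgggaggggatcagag

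The elements CCCTATATGG and CCTTGTTTGG begin 84 and 34 bases before the start that the window uses. Windows with 2 or more such elements made up 0.822% of all 32851 windows, and 9.98% had at least 1. The Pdgfc window (chr3:81036166-81036465, plus strand) held CCTTATTTGG, a CArG box with no G or C inside, 17 bases before its start, a form present in 1.63% of all windows. The windows of Pdgfa, Pdgfra, Cnn1 and Des held neither form. These matches describe the letters in the windows.

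Levels are given as normalised log2 signal after background correction, so a step of 1 is a doubling. The 3 probes for Cd151 were detected on 4 of 4 Cd151+/+ and on 0 of 4 Cd151-/- arrays, as the labels have it. Background differed between arrays: 4 arrays (Cd151+/+ mice 1 and 2, Cd151-/- mice 3 and 4) had an inferred background of 59.0 to 69.5 intensity units, and the other 4 (Cd151+/+ mice 3 and 4, Cd151-/- mice 1 and 2) one of 123 to 135. Each set holds 2 mice of each genotype. Differences between genotypes are therefore also given within the set of lower and within the set of higher background. Why the sets differ is not given in the sources used here.

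None of the 11 tested probes passed limma with Benjamini-Hochberg adjustment over all 14967 probes (adjusted p = 0.918 for each), where 0.0334% of all probes did. Without adjustment 2 of the 11 probes had a p-value under 0.05, a leading Acta2 probe that was higher and Pdgfrb that was lower in Cd151-/- glomeruli, against 4.30% of all probes. In 0 of the 11 did the 4 mice of a genotype lie wholly apart from the other 4, against 2.31% of all probes. The median difference of the 9 genes was -0.35 (3 higher, 6 lower), beside -0.0018 over all 11240 tested genes. It was -0.56 at lower and -0.11 at higher background. Exact permutation tests over the 70 relabelings of 4 mice against 4 were two-sided and can give no p-value below 0.0286.

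**Figure D1:**
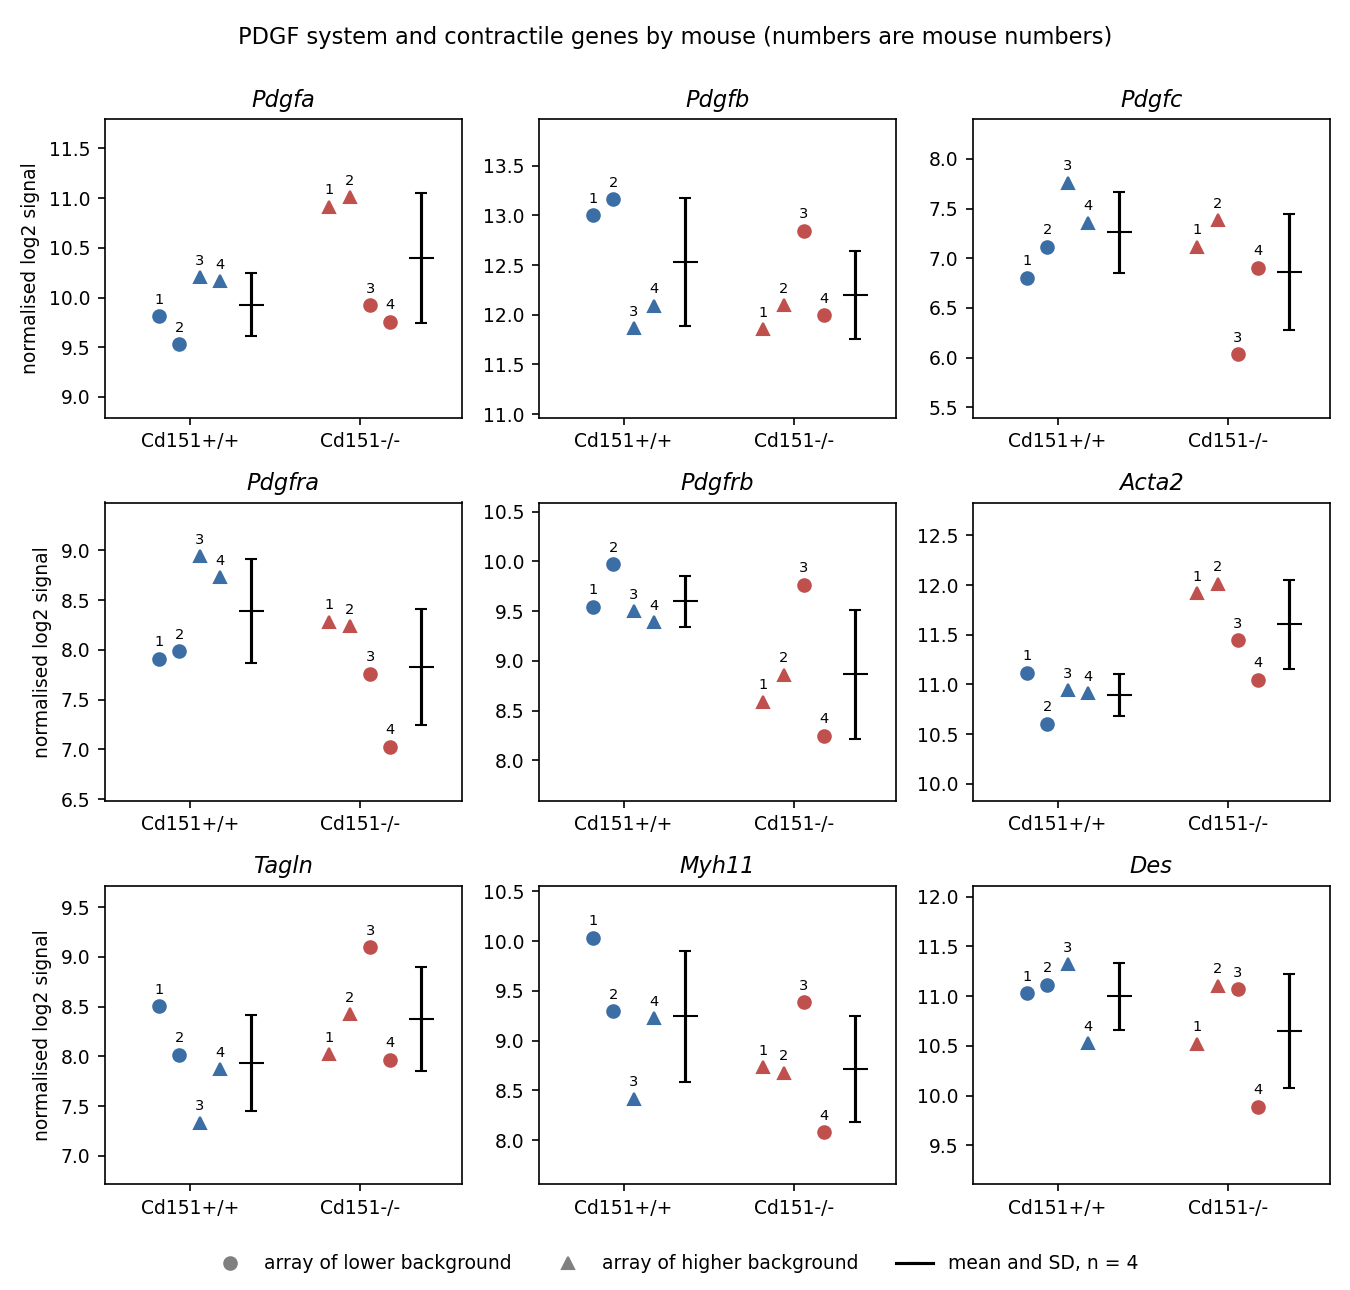
Normalised log2 signal (vertical axes, each spanning 3 log2 units) of the 9 detected genes in each mouse, with circles for arrays of lower background and triangles for arrays of higher background, and the mean with SD of each genotype (n = 4). Cd151+/+ and Cd151-/- mice overlap in all 9 panels. For Acta2 only Cd151-/- mouse 4 (11.05) lies below a Cd151+/+ mouse (11.12).

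Among the ligands, Pdgfa, the gene of the PDGF-A chain, had log2 signals of 9.81, 9.53, 10.21 and 10.17 in Cd151+/+ mice 1 to 4 and of 10.91, 11.01, 9.92 and 9.76 in Cd151-/- mice 1 to 4. Cd151-/- mice 1 and 2 lay above every other mouse, and Cd151-/- mice 3 and 4 lay within the Cd151+/+ range. The means were 9.93 ± 0.32 and 10.40 ± 0.65 (SD, n = 4 each), a difference of 0.47 (SE 0.32, 95% interval -0.24 to 1.18) that did not pass the exact permutation test (p = 0.314). Within the sets of arrays the difference was 0.17 at lower and 0.78 at higher background, and it was 0.30 without Cd151-/- mouse 1 and 0.27 without Cd151-/- mouse 2. Pdgfa signal also differed between the sets themselves, by 0.82 with genotype in the fit (limma, adjusted p = 0.0120). The share of all probes with such a difference between sets was not counted, here or for the genes below. It did not pass adjustment for Pdgfrb, Acta2 (leading probe), Tagln, Myh11 and Des (limma, adjusted p from 0.186 to 0.833).

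Pdgfb encodes the PDGF-B chain that glomerular endothelium supplies to the mesangium. Its detected probe gave 13.00, 13.16, 11.86 and 12.09 in Cd151+/+ mice and 11.85, 12.10, 12.84 and 11.99 in Cd151-/- mice. The 3 highest mice were the Cd151+/+ mice 1 and 2 and the Cd151-/- mouse 3, all on arrays of lower background, and the genotypes overlapped throughout. The means were 12.53 ± 0.65 and 12.20 ± 0.44 (difference -0.33, SE 0.34, 95% interval -1.09 to 0.42, exact permutation p = 0.314). The difference was -0.66 at lower and -0.0031 at higher background, while arrays of higher background read 0.77 lower than the others (limma, adjusted p = 0.0381). Without Cd151+/+ mouse 1 or 2 or Cd151-/- mouse 1 the difference was -0.18, -0.12 and -0.22, and without Cd151+/+ mouse 3 or Cd151-/- mouse 3 it was -0.56 and -0.55. The second Pdgfb probe stayed between 0.945 and 1.1 times background on all 8 arrays.

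Pdgfc encodes PDGF-C, a ligand that is activated by proteolysis outside the cell and acts mainly through PDGFR-alpha. Its probe read 1.29 to 3.12 times the background of the array, so small differences in signal weigh heavily in its values. Signals were 6.80, 7.12, 7.76 and 7.36 in Cd151+/+ and 7.11, 7.38, 6.03 and 6.91 in Cd151-/- mice. Only Cd151-/- mouse 3 lay below all Cd151+/+ mice. The means were 7.26 ± 0.40 and 6.86 ± 0.58, a difference of -0.40 (SE 0.32, 95% interval -1.10 to 0.30, exact permutation p = 0.371), or -0.49 and -0.31 within the sets. It was -0.13 without Cd151-/- mouse 3 and -0.23 without Cd151+/+ mouse 3. Arrays of higher background read 0.69 higher (limma, adjusted p = 0.0483).

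Both receptors had lower means in Cd151-/- glomeruli, and for both the difference was of like size within each set of arrays. Pdgfrb, which encodes the receptor by which mesangial cells answer PDGF-B, gave 9.54, 9.97, 9.50 and 9.39 in Cd151+/+ mice and 8.59, 8.86, 9.76 and 8.24 in Cd151-/- mice. Cd151-/- mice 1, 2 and 4 lay below every Cd151+/+ mouse, and Cd151-/- mouse 3 lay second highest of all 8. The means were 9.60 ± 0.26 and 8.86 ± 0.65, which is 1.66-fold lower (difference -0.74, SE 0.32, 95% interval -1.43 to -0.04, limma unadjusted p = 0.0399, adjusted p = 0.918). The exact permutation test gave p = 0.114. The difference was -0.75 at lower and -0.72 at higher background. It ran from -1.04 without Cd151-/- mouse 3 to -0.53 without Cd151-/- mouse 4, and the unadjusted p-value stayed under 0.05 only when Cd151+/+ mouse 4 or Cd151-/- mouse 3 was the mouse left out.

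Pdgfra, the receptor for PDGF-A and PDGF-C, is best known from interstitial and fibroblast-like cells and its probe read 1.76 to 6.06 times background. Signals were 7.91, 7.99, 8.94 and 8.73 in Cd151+/+ mice and 8.28, 8.24, 7.76 and 7.02 in Cd151-/- mice. Over all mice the genotypes overlapped, whereas within each set of arrays both Cd151-/- mice lay below both Cd151+/+ mice. The share of all probes with such a pattern was not counted. The means were 8.39 ± 0.52 and 7.83 ± 0.58 (difference -0.57, SE 0.34, 95% interval -1.32 to 0.19, exact permutation p = 0.229). Without Cd151-/- mouse 4 the difference was -0.30. The difference was -0.56 at lower and -0.58 at higher background, and arrays of higher background read 0.88 higher (limma, adjusted p = 0.0106).

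Among the contractile genes, the probe of Acta2 with the highest mean (ILMN_2923445) gave 11.12, 10.61, 10.94 and 10.91 in Cd151+/+ mice and 11.92, 12.01, 11.44 and 11.05 in Cd151-/- mice. Cd151-/- mice 1, 2 and 3 lay above every Cd151+/+ mouse, and Cd151-/- mouse 4 lay between Cd151+/+ mouse 1 and the rest. The means were 10.89 ± 0.21 and 11.60 ± 0.45, which is 1.64-fold higher (difference 0.71, SE 0.26, 95% interval 0.14 to 1.28, limma unadjusted p = 0.0185, adjusted p = 0.918). The exact permutation test gave p = 0.0571. The difference was 0.38 at lower and 1.04 at higher background, and limma's interaction test of genotype and set gave an adjusted p of 0.977. Leaving out single mice gave 0.57 to 0.90, and the unadjusted p-value passed 0.05 upward without Cd151+/+ mouse 2 (0.0555) or without Cd151-/- mouse 1 (0.0583) or 2 (0.0589).

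The other Acta2 probes followed the same mice. ILMN_2710354 read 9.05 to 9.56 in Cd151+/+ and 9.18 to 10.23 in Cd151-/- mice, a difference of 0.50 (SE 0.26, limma unadjusted p = 0.0768). ILMN_2710353 read 8.88 to 9.55 in Cd151+/+ and 8.86 to 10.01 in Cd151-/- mice, a difference of 0.36 (SE 0.29, limma unadjusted p = 0.244). On both probes Cd151-/- mice 1, 2 and 3 again lay above every Cd151+/+ mouse and Cd151-/- mouse 4 among or below them. Over the 8 mice the 3 probes correlated at r = 0.869 to 0.955.

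Tagln encodes transgelin, an actin-binding protein of smooth muscle, and was measured at 2.29 to 5.46 times background. It gave 8.50, 8.02, 7.33 and 7.87 in Cd151+/+ mice and 8.02, 8.42, 9.10 and 7.97 in Cd151-/- mice. Only Cd151-/- mouse 3 lay above all Cd151+/+ mice. The means were 7.93 ± 0.48 and 8.38 ± 0.52 (difference 0.45, SE 0.32, 95% interval -0.26 to 1.15, exact permutation p = 0.257), with 0.27 at lower and 0.62 at higher background. It was 0.21 without Cd151-/- mouse 3 and 0.25 without Cd151+/+ mouse 3.

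Myh11, the smooth muscle myosin heavy chain, had a mean in the other direction. It gave 10.04, 9.30, 8.41 and 9.22 in Cd151+/+ mice and 8.73, 8.68, 9.38 and 8.08 in Cd151-/- mice, with the wider range among the Cd151+/+ mice. The means were 9.24 ± 0.66 and 8.72 ± 0.53 (difference -0.52, SE 0.36, 95% interval -1.32 to 0.28, exact permutation p = 0.286). The difference was -0.93 at lower and -0.11 at higher background. Leaving out Cd151+/+ mouse 1 gave -0.26 and Cd151+/+ mouse 3 gave -0.80, and it was -0.31 without Cd151-/- mouse 4. Cnn1, the gene of calponin 1, a regulator of smooth muscle contraction, read 0.877 to 1.17 times background, with no call of detection in either genotype.

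Des encodes desmin, the intermediate filament of muscle and mesangial cells that podocytes also make after injury. It gave 11.03, 11.11, 11.32 and 10.53 in Cd151+/+ mice and 10.52, 11.11, 11.07 and 9.89 in Cd151-/- mice. Mouse 4 was the lowest in either genotype, and Cd151-/- mice 2 and 3 lay within the range of the Cd151+/+ mice. The means were 11.00 ± 0.34 and 10.65 ± 0.57 (difference -0.35, SE 0.30, 95% interval -1.02 to 0.32, exact permutation p = 0.343), with -0.60 at lower and -0.11 at higher background. Without Cd151-/- mouse 4 the difference was -0.10. Of the 4 tested contractile genes 2 had a higher and 2 a lower mean in Cd151-/- glomeruli, and the median difference of 0.05 turned from -0.16 at lower to 0.26 at higher background.

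**Figure D2:**
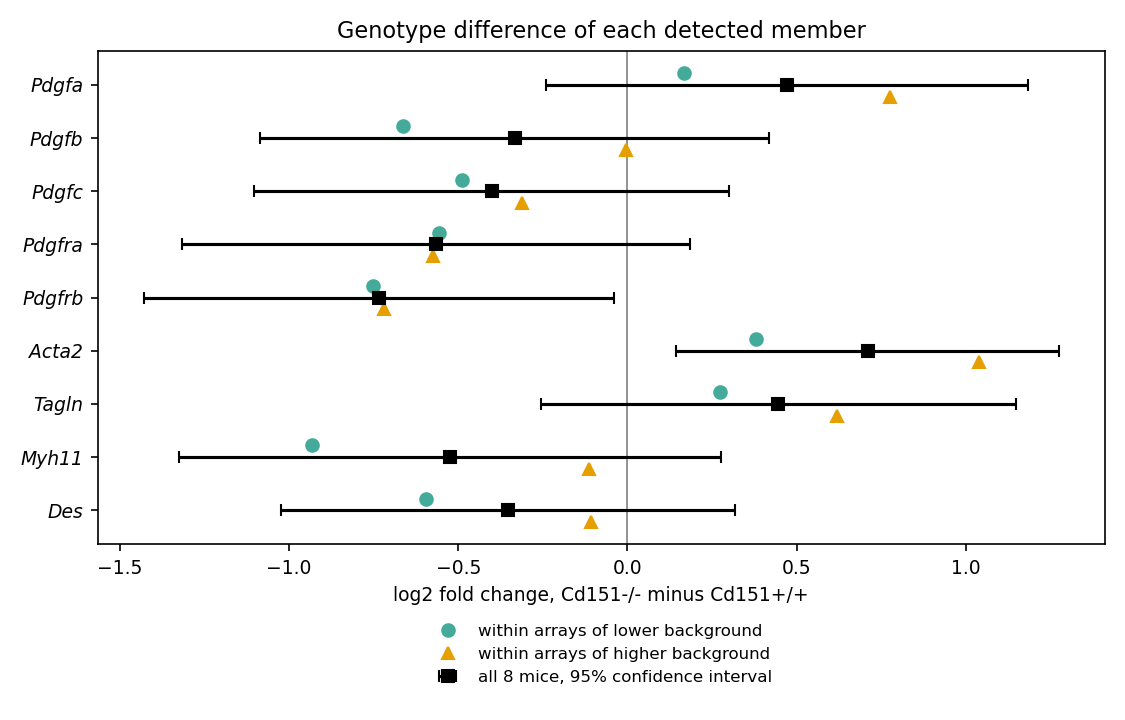
Difference in normalised log2 signal, Cd151-/- minus Cd151+/+ (horizontal axis), of the 9 detected genes, as squares with 95% confidence intervals over all 8 mice, circles within the 4 arrays of lower background and triangles within the 4 of higher background. The intervals of Pdgfrb (-1.43 to -0.04) and Acta2 (0.14 to 1.28) leave out 0 before adjustment over all probes, and the 2 receptors have circle and triangle close together.

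The sign of the difference was the same in both sets of arrays for all 9 genes, with Pdgfb at nearly 0 at higher background. How often the signs match between the sets over all tested genes was not counted. With the set of arrays as a term in the fit, 3 of the 11 probes were higher at an unadjusted p under 0.05 (Pdgfa, 0.0265, and Acta2 probes at 0.0064 and 0.0464) and 2 were lower (Pdgfra, 0.0135, and Pdgfrb, 0.0322). In that fit 11.3% of all probes had an unadjusted p under 0.05, and the lowest adjusted p among the 11 probes was 0.356. The test of unequal differences between the sets gave unadjusted limma p-values from 0.0942 for Pdgfa to 0.965 for Pdgfra.

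The members varied between mice in several patterns. Of 36 pairs of the 9 genes over 8 mice, 21 correlated positively and 15 negatively, 5 had an exact permutation p under 0.05 for Pearson's r, and none passed Benjamini-Hochberg adjustment (lowest adjusted p = 0.194). For Spearman's rho 3 pairs had an exact permutation p under 0.05 and the lowest adjusted p was 0.385. The pair with the highest r was Pdgfa and Acta2, with r = 0.86 (exact permutation p = 0.0108, adjusted p = 0.194) and rho = 0.64 (exact permutation p = 0.0962, adjusted p = 0.385). Without the 2 mice farthest from the Pdgfa median, r was 0.27, so the pooled relation rests on those mice. Cd151-/- mice 1 and 2 had the highest signals of both genes.

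Sets of 4 arrays are too small to test a correlation, and the values within a set are given as description. Values centred within sets were tested over all 8 mice by the 576 pairings that stay within sets, and 6 of the 36 pairs had an exact permutation p under 0.05, none after adjustment. Pdgfa and Acta2 correlated at 0.99 at lower and at 1.00 at higher background, and at 0.98 over 8 mice after centring within sets (exact permutation p = 0.00174, the smallest possible, adjusted p = 0.0625). The receptors Pdgfra and Pdgfrb correlated at 0.36 over all mice (exact permutation p = 0.390, adjusted p = 0.611), and at 0.95 after the centring (exact permutation p = 0.0156, adjusted p = 0.200). Centring within sets leaves the genotype difference in the values. With values centred within genotypes instead, the receptors correlated at 0.04, and Pdgfa with Acta2 at 0.88. Pdgfb and Pdgfrb, ligand and receptor, gave 0.72 (exact permutation p = 0.0368, adjusted p = 0.265), and 0.58 without the 2 mice farthest from the Pdgfb median. Their r was 0.97 at lower and 0.13 at higher background. Pdgfc and Tagln gave -0.86 (exact permutation p = 0.0102, adjusted p = 0.194), which was -0.22 without the 2 farthest mice. Acta2 correlated at 0.40 with Tagln, at -0.18 with Myh11 and at -0.01 with Des. These were 0.77, -0.02 and -0.06 after centring within sets, and 0.09, 0.28 and 0.49 after centring within genotypes.

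**Figure D3:**
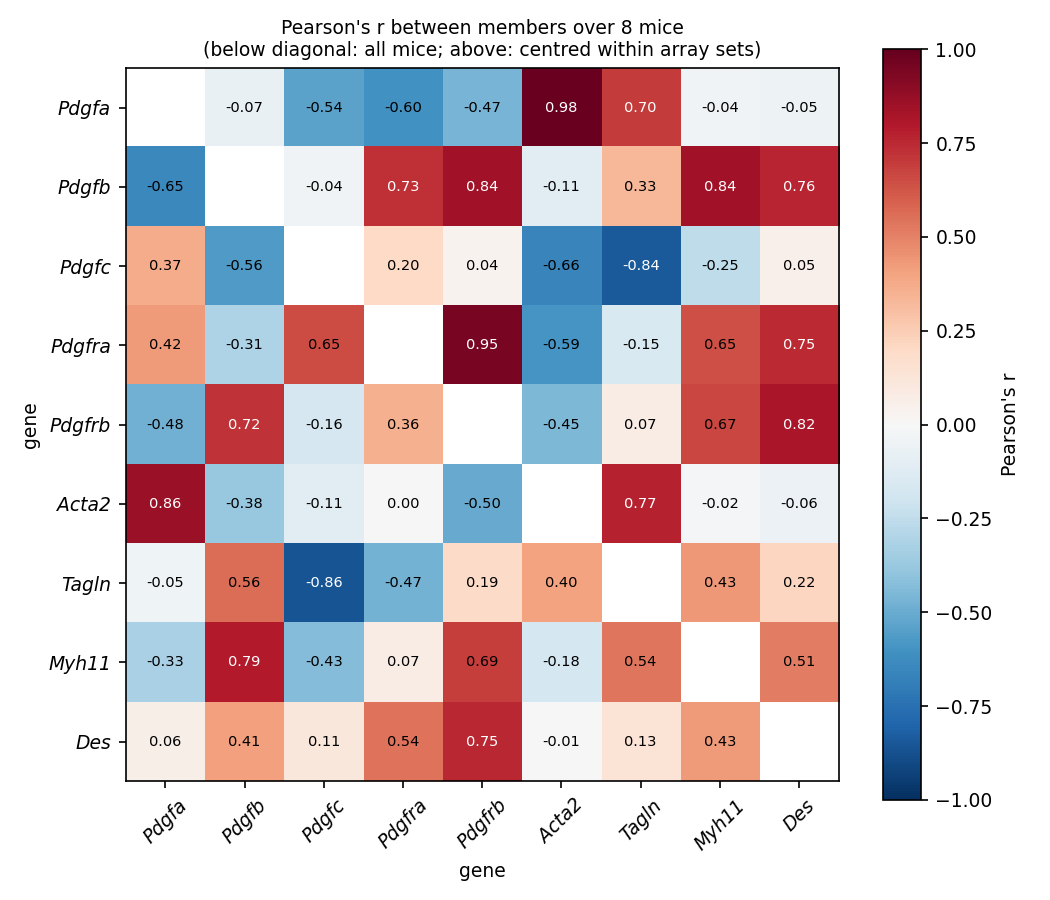
Pearson's r between each pair of the 9 detected genes (rows and columns) over 8 mice, from all values below the diagonal and from values centred within each set of 4 arrays above it, with red for positive and blue for negative r. Pdgfa with Acta2 is high on both sides (0.86 and 0.98), while Pdgfra with Pdgfrb is 0.36 below the diagonal and 0.95 above it. Values above the diagonal keep the genotype difference. Centred within genotypes (not drawn), Pdgfra with Pdgfrb gave 0.04.

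Among 9495 probes detected on all 8 arrays, the genes whose signal ran most like Pdgfrb over the 8 mice were 3010033P07Rik (r = 0.992), Zfx (0.988), Rac1 (0.976), Utx (0.975) and AI597479 (0.971). Those most like the leading Acta2 probe were Bhlhb9 (0.960), Iqgap1 (0.941), Tsrc1 (0.938), Acate3 (0.930) and Cxcl13 (0.922). These are a ranking, with no test.

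The rest of the PDGF pathway was read from a list of 32 further ligands, adaptors and signalling enzymes, of which 31 were on the array and 24 were detected. Of these 9 had a higher and 15 a lower mean in Cd151-/- glomeruli, with a median difference of -0.15 (-0.22 at lower and -0.06 at higher background), and 0 passed an unadjusted p of 0.05. The 4 smallest p-values belonged to Mapk3, the kinase ERK1 (-0.53, limma unadjusted p = 0.0523), Slc9a3r2, a scaffold protein of the NHERF family (-0.60, 0.0638), Furin, a protease that processes PDGF precursors (-0.45, 0.100), and Stat3, a transcription factor downstream of growth factor receptors (-0.45, 0.130). Stat3 was -0.94 at lower and 0.03 at higher background, while the other 3 kept their sign. Pdgfd, the remaining ligand gene, was not detected on any array, nor were Pdgfrl, Plat, Sos1, Akt1, Plcg1 and Map2k1. The summed signal of the detected genes of the list lay at 15.92 to 16.21 in Cd151+/+ and at 15.57 to 15.97 in Cd151-/- mice on the log2 scale, so the genotypes overlapped narrowly.

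Of 27 further genes of the smooth muscle contractile apparatus, 23 were on the array and 20 were tested, with 13 means higher, 7 lower, and 0 past an unadjusted p of 0.05. Their median of 0.09 turned from -0.13 at lower to 0.31 at higher background. Rock2, a kinase that promotes myosin contraction, differed by 0.46 (limma unadjusted p = 0.0795, -0.03 at lower and 0.96 at higher background), Lmod1, the actin nucleator leiomodin 1, by 0.35 (0.114), Tpm2, a tropomyosin, by 0.61 (0.143) and Cald1, caldesmon, by -0.42 (0.170). Cald1 was detected on only 2 Cd151+/+ and 1 Cd151-/- arrays. Lmod1, detected on 2 Cd151+/+ and 4 Cd151-/- arrays, was the 1 gene of the 20 in which the genotypes did not overlap, where 2.31% of all probes did not. Of 14 regulators of contractile genes, 11 were tested, with 7 means higher, 4 lower, none past an unadjusted p of 0.05 and a median of -0.18 at lower and 0.23 at higher background. Among them were Klf4, which represses the contractile programme (-0.81, limma unadjusted p = 0.0813), Mkl1, an actin-sensing partner of Srf (-0.53, 0.114), Fhl1, a LIM domain protein of muscle (0.36, 0.143) and Myocd (0.25, 0.291). Klf4 was -1.56 at lower and -0.06 at higher background, Mkl1 -0.98 and -0.09, Fhl1 0.66 and 0.05, and Myocd 0.28 and 0.23. Mkl1 was detected on only 2 Cd151+/+ and 1 Cd151-/- arrays, and Myocd on 1 and 3. Srf itself differed by 0.14 (0.731), with -0.27 at lower and 0.55 at higher background.

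Markers of mesangium and pericytes outside the 10 genes gave 15 tested of 20 listed, with 5 means higher, 10 lower, a median of -0.07 (-0.13 at lower and 0.02 at higher background) and none past an unadjusted p of 0.05. Rgs5, a regulator of G-protein signalling known from pericytes, differed by -0.52 (limma unadjusted p = 0.351), with the sign turning from -1.41 at lower to 0.37 at higher background. Gucy1a3, a soluble guanylate cyclase subunit, differed by -0.39 (0.110), Thy1 by 0.37 (0.335) and Kcnj8, a pericyte potassium channel, by 0.30 (0.364). Kcnj8 was detected on only 2 Cd151+/+ and 3 Cd151-/- arrays. Tbx18 was not detected on any array. On the log2 scale the list summed to 14.71 to 15.02 in the Cd151+/+ group, inside the 14.37 to 15.34 of the Cd151-/- group.

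None of the markers of other cell types passed an unadjusted p of 0.05. All 10 endothelial markers were tested, and 9 had lower means in Cd151-/- glomeruli (median -0.32), Ehd3 by -0.63 and Tek by -0.44 among them. Their summed signal was 15.48 to 15.81 in Cd151+/+ and 14.81 to 15.78 in Cd151-/- mice. Of 10 podocyte markers 5 were tested and all 5 had lower means (median -0.19), with Ptpro at -0.43, and their sum ran from 15.94 to 16.07 and from 15.62 to 16.02. The podocyte marker Ptpro was detected on all 8 arrays, as were Pdgfrb, Des and the endothelial markers but Kdr.

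Of 10 tubule markers 8 were tested (5 means higher, sums of 15.28 to 16.22 and 15.56 to 16.06), and their median of 0.26 was 0.45 at lower and -0.11 at higher background. The proximal transporter gene Slc22a6 differed by 0.98 (limma unadjusted p = 0.0628), and Umod and Slc12a1 of the thick ascending limb by -0.54 and -0.52. Slc22a6 was 1.81 at lower and 0.15 at higher background, Umod -0.84 and -0.24, and Slc12a1 -0.79 and -0.25. Of 10 leukocyte markers 8 were tested (4 higher, median -0.05, sums of 10.30 to 11.04 and 10.46 to 10.96), and of 8 markers of fibroblasts and parietal epithelium 5 (3 higher, median 0.17, sums of 9.48 to 10.13 and 10.08 to 10.69). Cldn1 of parietal epithelium differed by 0.64 (limma unadjusted p = 0.0530, 0.63 at lower and 0.65 at higher background). Dcn of fibroblasts differed by 0.67 (limma unadjusted p = 0.118, 0.30 and 1.04). Both were detected on all 8 arrays, as were Cd68, Lyz2, Cd3e and Laptm5 of leukocytes. Col1a2, detected on 1 Cd151+/+ and 0 Cd151-/- arrays, differed by -0.39 (limma unadjusted p = 0.128). Of these lists, Col3a1, Lum and Postn of fibroblasts and Ptprc and Itgam of leukocytes were not detected on any array. The part of other cell types in the differences of Pdgfrb, Pdgfra and Acta2 was not tested.

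**Figure D4:**
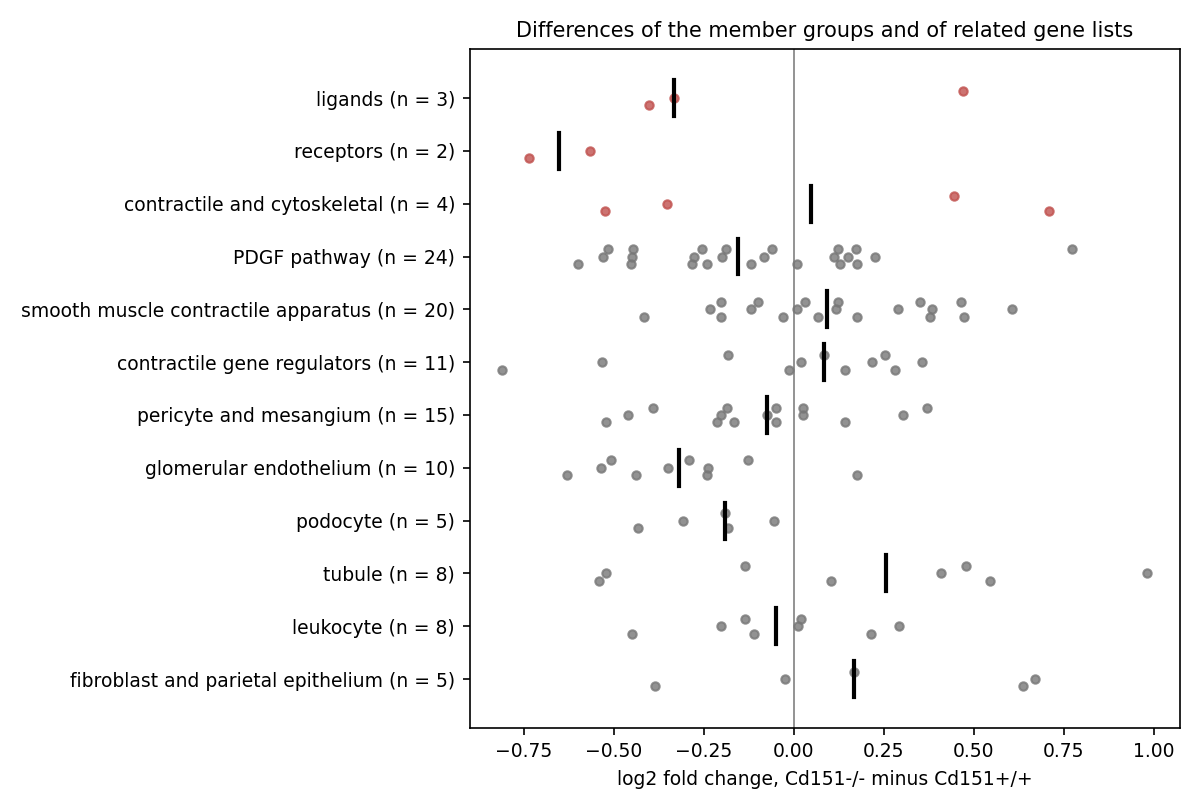
Difference in normalised log2 signal, Cd151-/- minus Cd151+/+ (horizontal axis), of each tested gene (points, 1 probe per gene) in the 3 groups of members (red) and in the pathway and marker lists (grey), with the median of each list as a black bar and the number of genes in parentheses. The receptors have the lowest median (-0.65, 2 genes) and the tubule list the highest over all mice (0.26, 8 genes, -0.11 within the arrays of higher background), and points of every list with over 5 genes lie on both sides of 0.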

How the data were processed

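RNA of glomerular isolates from 8 mice was amplified, biotin-labelled and hybridised for 17 h to MouseRef-8 v1.1 BeadChips. The authors deposited a signal intensity for each probe and array, the mean brightness of its beads, before any background subtraction or normalisation. A detection p-value in steps of 1 over 798 was deposited with every intensity. GenomeStudio is named in the submitters' processing notes. The study's own normalisation was a cubic spline, and its SAM step was not run here.

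Genotypes were taken from the labels. In R 4.3.3, neqc of limma 3.58.1 (offset 16, quantile normalisation) was applied with the background inferred from those p-values, followed by lmFit and eBayes. Tests covered every probe detected (p-value up to 0.05) on 1 array or more, and Benjamini-Hochberg adjustment ran over all of these at a threshold of 0.05. Permutation tests enumerated all relabelings in R, and correlations all pairings of the 8 mice in NumPy 2.4.6 with ranks from SciPy 1.17.1. Where a gene has several probes, that of highest mean over the 8 mice leads. Named were the 10 genes, the 5 nearest neighbours of Pdgfrb and Acta2, and of each list the genes past adjustment or up to 4 with the smallest unadjusted p. Summed signals add the detected genes of a list, 1 probe each. The genes, lists and alternatives were chosen with earlier results of these data known.

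Between 11291 and 12359 probes were detected per array, at a median of 3.00 to 4.46 times background. Precision is limited by these signals and by 8 arrays. A slide effect could not be fitted, since slides are not given in the column names. On simulated data in which 200 of 14967 probes were shifted by 2 log2 units, limma called 80.5% of the 200, and 4.73% of its calls were unchanged probes. With no probe changed it made 0 calls. Differences of the 11 probes ran from -0.74 (Pdgfrb) to 0.71 (Acta2), and shifts of that size were not simulated. Alternatives were signals without normexp, an offset of 50, scaling to the 75th percentile, a re-implemented cubic spline on 15 quantiles, other detection filters and an intensity of at least 50, the mouse number or the set of arrays as a block, limma's array weights, a robust variance with a trend, and each mouse left out in turn. Correlations after centring within sets or within genotypes were added after seeing the data. Promoter windows come from RefSeq (GRCm38.p6), and no window of the remaining genes was used here. Some items are not reported here.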

Additional observations from a re-analysis of the deposited data

How the results depend on the processing

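The 9 genes kept the sign of their difference, and their side of the adjusted threshold, in all 173 values from the alternatives, and 0 of the 11 probes passed an adjusted p of 0.05 in any of them. The other filters, the blocks and the trended variance leave the differences unchanged by design, so signs could not turn there. The intensity of at least 50 removed none of the tested probes. Of all probes 4 to 8 passed, 8 of them when the set of arrays was a block. Counts at an unadjusted p under 0.05, 1 higher and 1 lower at first, moved more. With array weights they were 4 higher (Pdgfa and the 3 Acta2 probes) and 3 lower. There 32.2% of all probes had an unadjusted p under 0.05 against 4.30% at first. The limma adjusted p of Acta2, Pdgfa and Pdgfrb was 0.0885, while the differences of Pdgfra and Pdgfc were -0.07 and -0.05. The weights were 1.73 and 1.89 for Cd151+/+ mice 1 and 2, on arrays of lower background. They were 2.79 and 1.35 for Cd151-/- mice 1 and 2, on arrays of higher background, and 0.47 to 0.61 for the other mice. This fit thus mostly set Cd151+/+ arrays of lower background against Cd151-/- arrays of higher background, and cannot tell genotype from set. When the set of arrays was a block the counts were 3 higher and 2 lower (11.3% of all probes). Scaling to the 75th percentile left 0 lower (2.60%). The mouse number used as a replicate block also left 0 lower (Pdgfrb -0.74, limma unadjusted p = 0.0519, 2.81% of all probes), and 4 of all probes passed adjustment. Deviations of same-numbered mice correlated at -0.58, -0.40, -0.53 and -0.01. Same-numbered mice always lay in opposite sets of arrays, so these values cannot tell whether the numbers pair the mice. With each mouse left out in turn, 0 to 3 probes were higher, 0 to 1 lower, and 4 to 6 of all probes passed adjustment. The share of all probes ran from 2.36% to 9.41% in these fits. Without Cd151-/- mouse 4 the counts were 3 higher, all of them probes of the 1 gene Acta2, and 0 lower, at 3.19% of all probes. Without Cd151+/+ mouse 2, or Cd151-/- mouse 1 or 2, both counts were 0, and without Cd151+/+ mouse 1 the count of lower probes was 0. The cause of these moves was not tested. None of the 11 tested probes had a mouse far from its group by Dixon's test (22 groups of 4). Signals near background limit Pdgfc, Pdgfra and Tagln most.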
